A study of Mus musculus with 6 samples.

Results

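The genes described here are the core of the oxygen-sensing pathway in AML12 cells after hypoxia-reoxygenation (H/R). They were chosen by name, and all 10 were among the 25330 genes in the deposited tables. The list holds 4 HIF subunits (Hif1a, Epas1, Hif3a and Arnt), 4 oxygen-dependent hydroxylases that act as sensors (Egln1, Egln2, Egln3 and Hif1an), the ubiquitin ligase subunit Vhl and the HIF competitor Cited2. AML12 is an immortalized hepatocyte line from a mouse that carried a transgene for human TGF-alpha, and the labels give the genotype of all cells as WT. Of the 6 libraries, 3 came from cells kept in 21% oxygen (control). The other 3 came from cells that spent 6 h at 1% oxygen in medium lacking serum and glucose, followed by 2 h of reoxygenation (H/R, labelled H6R2). All cells were grown in DMEM/F12 with fetal bovine serum, an insulin, transferrin and selenium supplement and dexamethasone before this. Oxygen and medium changed together in the H/R arm, so their contributions cannot be told apart in these data. No library was made after hypoxia alone, so hypoxia and reoxygenation cannot be told apart either. All 6 libraries are of 1 cell line, and the labels do not say whether replicates were separate cultures, so the p-values measure the spread between these libraries only.

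Hypoxia-inducible factors pair an oxygen-labile alpha subunit with the stable beta subunit ARNT and switch on genes for glycolysis, angiogenesis and erythropoiesis. With oxygen present, EGLN enzymes hydroxylate prolines of the alpha subunit, VHL binds the hydroxylated protein and the proteasome removes it. HIF1AN hydroxylates an asparagine and blocks the binding of the coactivators p300 and CBP, and CITED2 competes with HIF for the same coactivators. Several of these regulators are themselves HIF target genes, which closes a feedback loop. The pathway is controlled mainly through protein stability, and the values below are mRNA levels only. In bulk RNA, fewer cells of a type and less RNA per cell cannot be told apart.

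The libraries held between 20438746 and 21854790 counted reads. The hepatocyte lineage factor Hnf4a had 2973 to 3209 counts in control and 2035 to 2166 in H/R libraries, and Alb had 132 to 542 and 31 to 43. Of 10 hepatocyte markers 7 fell and 3 rose at an adjusted p below 0.05, against 31.8% and 31.0% of all tested genes. The bile duct markers Krt7, Krt19 and Sox9 rose, for example Sox9 from 160 to 200 counts up to 896 to 1013. The endothelial markers Pecam1, Cdh5 and Kdr and the leukocyte markers Ptprc, Adgre1 and Clec4f had at most 3 counts in every library. Cd68, also on the leukocyte list, rose from 16 to 22 counts up to 113 to 137. Epcam, also on the bile duct list, was not analysed here. Of the stellate cell and fibroblast list, Lrat and Acta2 had at most 3 counts in every library, and the list summed to 12 to 25. The summed counts of the hepatocyte list were 89485 to 98181 in control and 127340 to 135568 in H/R libraries, most of them Krt8 and Krt18. The part of these marker shifts in the results below was not tested.

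All 10 genes passed the filter on low counts, and each of the 10 reached an adjusted p below 0.05 for H/R against control (edgeR's quasi-likelihood test, adjusted over the 14020 genes tested). Cited2, Egln1, Egln3, Arnt, Hif1a, Hif3a, Vhl and Hif1an rose, and Epas1 and Egln2 fell. The background was high, since 31.0% of all tested genes rose and 31.8% fell at this threshold. Cited2, Egln1 and Egln3 among the genes that rose, and Epas1 among those that fell, also changed by 2-fold or more, against 4.25% and 4.27% of all tested genes. With library totals in place of TMM scaling, the genes past both thresholds split into 476 higher and 810 lower instead of 596 and 599, and the median change over all tested genes (log2) moved from -0.01 to -0.12. The control and H/R libraries did not overlap for 9 of the 10 genes, the exception being Vhl, and for 65.9% of all tested genes. The median log2 fold change of the 10 genes was 0.62.

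**Figure D1:**
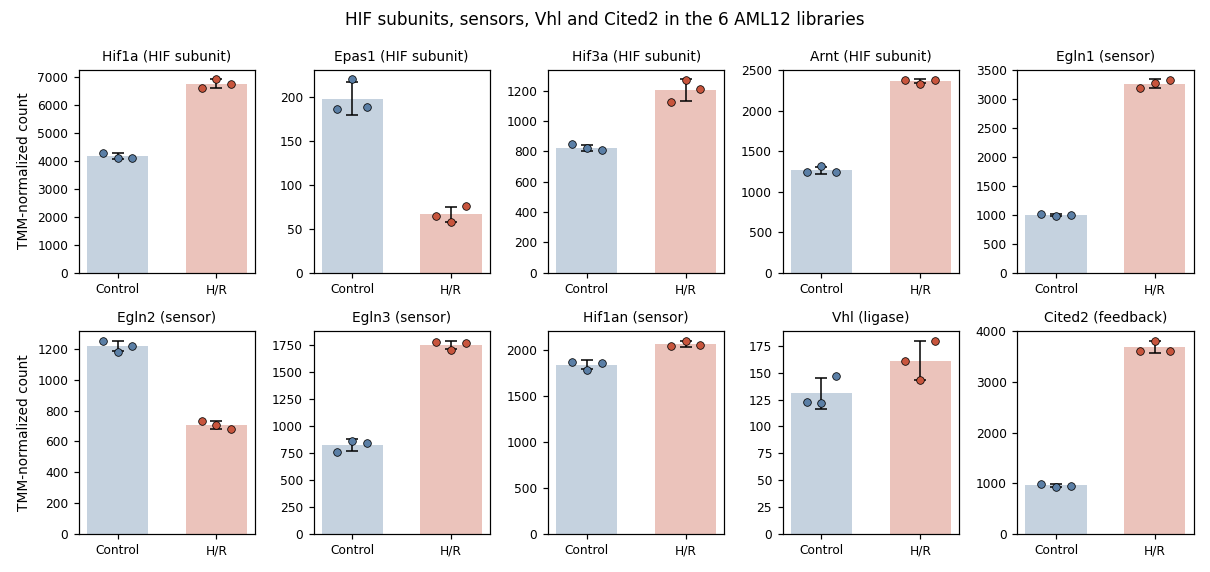
TMM-normalized count (vertical axis, from 0) of each of the 10 genes in the 3 control and the 3 H/R libraries. Points are libraries, bars are means and error bars are SD. The groups are apart in every panel but Vhl, with Epas1 and Egln2 lower after H/R and the other genes higher.

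The feedback gene Cited2 showed the largest change. For Cited2 (chr10:17723228-17725673, plus strand, GRCm38), replicates 1, 2 and 3 gave 1049, 958 and 1005 counts in control cells and 3357, 3542 and 3620 after H/R. Libraries are listed in this order throughout. Every H/R library lay far above every control library. Its TMM-normalized count was 958 ± 31.2 in control and 3684 ± 117 in H/R cells (SD, n = 3 each), a 3.85-fold rise (log2 fold change 1.94, standard error 0.047, adjusted p = 2.49e-27). By p-value it ranked 13 among the 14020 tested genes.

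The sensors did not move as a group. Egln1, the main prolyl hydroxylase acting on HIF alpha in most cells, rose 3.29-fold. Egln1 (chr8:124908587-124949324, minus strand) had 1070, 998 and 1064 counts in the control libraries and 2965, 3049 and 3340 in the H/R libraries. The normalized count went from 996 ± 20.5 to 3273 ± 73.3 (SD, n = 3 each; log2 fold change 1.72, standard error 0.046, adjusted p = 4e-26). Egln3, a hydroxylase known to be strongly inducible by HIF, rose 2.14-fold. Egln3 (chr12:54178981-54203860, minus strand) had 801, 881 and 898 counts in control and 1653, 1583 and 1775 in H/R libraries (log2 fold change 1.10, standard error 0.053, adjusted p = 7.36e-19). It lay close to the 2-fold threshold and was just below it with library totals, where the log2 fold change was 0.99.

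Egln2, the third prolyl hydroxylase of the family, moved the other way. Egln2 (chr7:27158658-27166802, minus strand) had 1323, 1212 and 1296 counts in the control libraries and 682, 655 and 679 in the H/R libraries, so that the highest H/R library was below the lowest control library. The normalized count went from 1218 ± 35.3 to 706 ± 28.0 (SD, n = 3 each), a 1.73-fold decrease (log2 fold change -0.79, standard error 0.055, adjusted p = 1.55e-14). Of the exon bases of Egln2, 11 are shared with Cyp2t4 on the opposite strand, a gene with 9 counts or fewer in each library.

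The asparaginyl hydroxylase gene Hif1an changed least. Hif1an (chr19:44562850-44576274, plus strand) had 1975, 1826 and 1969 counts in control and 1898, 1946 and 2051 in H/R libraries, so the raw counts of the groups overlap. After TMM scaling they did not, with 1835 ± 47.5 in control and 2064 ± 30.0 in H/R cells (SD, n = 3 each; log2 fold change 0.17, standard error 0.045, adjusted p = 0.00142). The call depended on the scaling, since the log2 fold change was 0.10 with upper quartile scaling (adjusted p = 0.0531 from the same edgeR test) and 0.06 with library totals (adjusted p = 0.219).

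Vhl, the substrate-binding subunit of the ligase that marks hydroxylated HIF alpha for degradation, was sparsely counted. Vhl (chr6:113623959-113631633, plus strand) had 130, 125 and 156 counts in control and 149, 133 and 180 in H/R libraries, and the groups overlapped, with control replicate 3 above H/R replicate 2. The log2 fold change was 0.31 (standard error 0.122, adjusted p = 0.0288 from edgeR's test). The call was lost in 8 of 14 alternatives. Among these were leaving out control replicate 1 (log2 fold change 0.26, adjusted p = 0.0982), control replicate 2 (0.26, adjusted p = 0.0935) or H/R replicate 3 (0.22, adjusted p = 0.17), library totals (0.20, adjusted p = 0.164) and DESeq2 (0.31, adjusted p = 0.0722).

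HIF binds DNA at a short core sequence, A or G followed by CGTG. This core was searched on both strands in RefSeq promoter windows of GRCm38.p6 that run from 250 bases before to 50 bases after a gene's start. A window was given for 9 of the 10 genes, and that of Epas1 was not analysed here. ACGTG occurs in 19.7% of 32544 distinct windows of this length and GCGTG in 32.6%. In the window at the outermost RefSeq start of each gene, ACGTG was present for Hif1a, Egln1, Egln2, Egln3 and Cited2 and absent for Hif3a, Arnt, Hif1an and Vhl. GCGTG was present for Hif3a, Arnt, Egln1 and Egln2. The RefSeq starts of Hif1a and Egln1 lie inside the gene spans of the deposited tables, so their matches below do too, wholly or in part. The palindrome CACGTG, which matches ACGTG on both strands and is also the E-box bound by other bHLH proteins, occurs in 7.17% of windows and was found in those of Hif1a, Egln2 and Cited2. A match in these letters is not evidence of binding, and the core was present both for genes that rose and for Egln2, which fell.

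The ACGTG and CACGTG matches are shown with 12 bases on each side, read 5′ to 3′ on the strand of the gene, with the match in capitals, so that the contexts in rising and falling genes can be compared.
Cited2, 153 bases before the start (chr10:17723063-17723092, plus strand): gcagccgctgcgCACGTGcagcgcggactc
Egln1, 68 bases before the start (chr8:124949306-124949334, minus strand): gggccgtggtgtACGTGcagcgcgcgcgg
Egln3, 229 bases before the start (chr12:54204087-54204115, minus strand): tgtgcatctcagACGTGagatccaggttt
Hif1a, 135 bases before the start (chr12:73907720-73907749, plus strand): cacacagacaagCACGTGagcggggcagct
Hif1a, 70 bases before the start (chr12:73907785-73907813, plus strand): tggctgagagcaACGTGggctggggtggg
Egln2, 48 bases before the start (chr7:27166834-27166862, minus strand): agcctcctgtcaACGTGcggttcgcgcac
Egln2, 4 bases before the start (chr7:27166789-27166818, minus strand): ccgggccgctgtCACGTGcccagcgggcga

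The 250 bases before the start are shown for Cited2 and Egln3, which rose past both thresholds, and for Egln2, which fell. Their G and C content is 66.8%, 50.8% and 59.2%. ACGTG and CACGTG are in capitals, and the CACGTG of Egln2 crosses its start and is cut off here.
Cited2 (chr10:17722978-17723227, plus strand): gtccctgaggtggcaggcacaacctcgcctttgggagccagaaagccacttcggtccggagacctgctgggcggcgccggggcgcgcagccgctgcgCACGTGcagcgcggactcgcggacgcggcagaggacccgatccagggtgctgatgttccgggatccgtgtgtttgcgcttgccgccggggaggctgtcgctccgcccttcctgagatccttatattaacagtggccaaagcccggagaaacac
Egln3 (chr12:54203875-54204124, minus strand): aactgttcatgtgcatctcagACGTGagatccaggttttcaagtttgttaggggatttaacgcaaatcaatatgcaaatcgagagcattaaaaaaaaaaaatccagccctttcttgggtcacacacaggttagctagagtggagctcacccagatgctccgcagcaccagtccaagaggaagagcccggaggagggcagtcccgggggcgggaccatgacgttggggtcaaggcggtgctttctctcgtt
Egln2 (chr7:27166803-27167052, minus strand): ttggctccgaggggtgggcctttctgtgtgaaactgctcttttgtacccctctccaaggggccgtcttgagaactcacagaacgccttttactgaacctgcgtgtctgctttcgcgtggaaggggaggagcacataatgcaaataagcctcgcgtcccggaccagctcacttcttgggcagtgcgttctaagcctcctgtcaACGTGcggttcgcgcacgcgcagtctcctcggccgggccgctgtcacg

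Among the HIF subunits, Hif1a and Epas1 went in opposite directions. Hif1a (chr12:73901375-73947530, plus strand) had 4539, 4208 and 4351 counts in control and 6146, 6418 and 6761 in H/R libraries, with no overlap. Its normalized count went from 4166 ± 114 to 6766 ± 151 (SD, n = 3 each), a 1.62-fold rise (log2 fold change 0.70, standard error 0.041, adjusted p = 1.09e-16). The antisense gene Gm15283 shares 330 of the 5896 exon bases of Hif1a and had 801 to 958 counts in control and 1316 to 1407 in H/R libraries, and whether the counting kept the strands apart is not stated. With all counts of Gm15283 taken away from Hif1a, an alternative chosen after seeing the data, the log2 fold change was 0.67.

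Epas1, which codes for the alpha subunit best known for driving erythropoietin and iron genes, fell 2.98-fold. Epas1 (chr17:86753907-86833410, plus strand) had 197, 226 and 200 counts in control libraries and 60, 54 and 76 in H/R libraries. The normalized count went from 198 ± 19.1 to 66.3 ± 8.97 (SD, n = 3 each; log2 fold change -1.58, standard error 0.134, adjusted p = 2e-12), and the H/R libraries all lay below the lowest control library. On log2(RPKM + 1), a scale that understates changes of genes with low values, the log2 fold change was -0.85, and with a pseudocount of 0.1 it was -1.53.

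Hif3a, whose products include inhibitory forms of HIF alpha that gene-level counts do not separate, rose 1.46-fold. Hif3a (chr7:17031507-17062427, minus strand) had 895, 843 and 857 counts in control and 1046, 1179 and 1214 in H/R libraries (log2 fold change 0.54, standard error 0.056, adjusted p = 1.83e-10). Arnt, the beta subunit shared by all HIF alpha proteins and by other bHLH-PAS factors, rose 1.87-fold. Arnt (chr3:95434388-95497240, plus strand) had 1310, 1345 and 1314 counts in control and 2206, 2162 and 2375 in H/R libraries (log2 fold change 0.90, standard error 0.046, adjusted p = 3.37e-18). For both genes the lowest H/R library was above the highest control library.

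**Figure D2:**
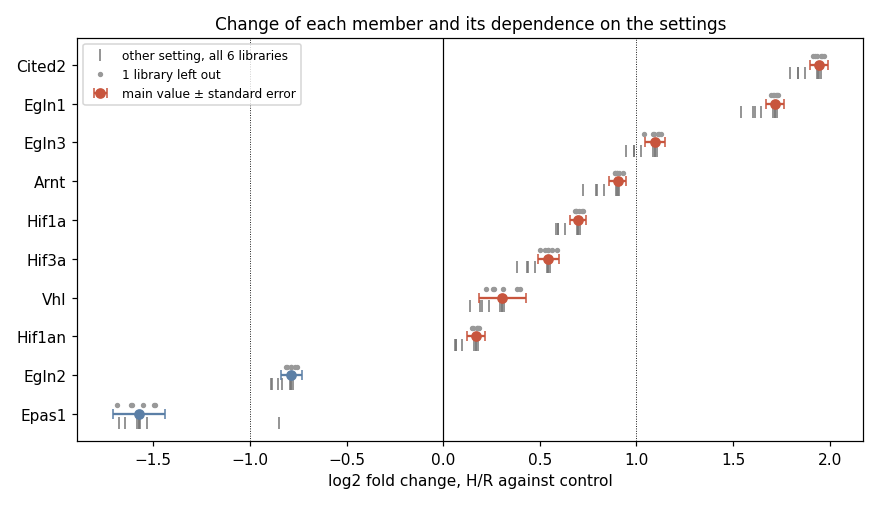
Log2 fold change of H/R against control (horizontal axis) for each of the 10 genes. Filled points are the main values with their standard errors, ticks below them are other settings on all 6 libraries, dots above them leave out 1 library, and dotted lines mark a fold change of 2. Every setting kept the sign, and Vhl and Hif1an lie closest to 0.

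The make-up of the mRNA pools differed between the groups. For this, the deposited RPKM values were used, which are levels per kilobase of exon. The length counts all merged exons of a gene, so comparisons of levels between genes, here and below, are approximate. Summed over Egln1, Egln2 and Egln3, the RPKM was 49.99 ± 1.27 in control and 82.97 ± 1.38 in H/R cells (SD, n = 3 each). Egln2 was the most abundant of these transcripts in control cells, with 44.1%, 41.6% and 42.2% of the sum in replicates 1, 2 and 3, and the least abundant after H/R, with 14.4%, 13.9% and 13.2%. Egln1 took 26.7% to 27.8% of the sum in control and 48.8% to 50.6% in H/R libraries. Egln3 took 28.1% to 31.8% and 35.5% to 36.8%, with no overlap.

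Hif1a held most of the HIF alpha pool in both groups, 81.5% ± 0.50 of the summed Hif1a, Epas1 and Hif3a RPKM in control and 85.7% ± 0.43 in H/R cells (SD, n = 3 each). The share of Epas1 was 4.31% ± 0.46 in control and 0.933% ± 0.134 in H/R cells. Hif3a held 14.1% to 14.2% in control and 12.9% to 13.8% in H/R libraries. The shares did not overlap between groups, and were not tested because they are sums over the chosen genes.

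**Figure D3:**
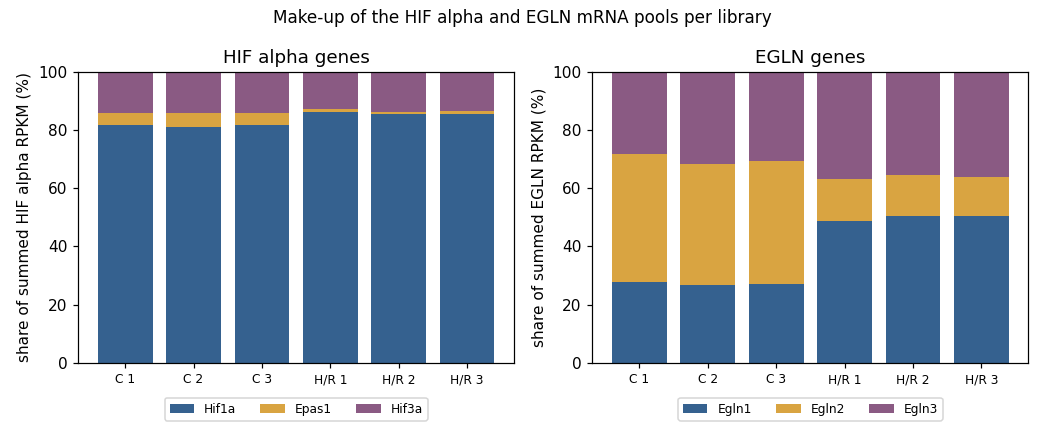
Share (%) of each gene in the summed RPKM of the HIF alpha genes (left) and of the EGLN genes (right), for control (C) and H/R libraries 1 to 3. The Egln2 segment shrinks from 41.6% or more in control to 14.4% or less in H/R libraries, and the Epas1 segment from 3.95% or more to 1.07% or less.

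Ratios between 2 genes inside a library do not depend on the scaling between libraries, and 3 were compared. The ratio of Egln1 to Egln2 RPKM was 0.630, 0.642 and 0.640 in the control libraries and 3.39, 3.63 and 3.83 in the H/R libraries, a 5.67-fold difference. The ratio of Egln3 to Egln2 was 0.637, 0.765 and 0.729 in control and 2.55, 2.54 and 2.75 in H/R libraries, a 3.69-fold difference. Hif1a RPKM was 19.0 ± 2.05 times that of Epas1 in control and 93.1 ± 13.5 times in H/R cells (SD, n = 3 each). None of the 3 ratios overlapped between groups, and each had p = 0.1 in an exact two-sided permutation test, the smallest p that 3 against 3 libraries can give, and p = 0.1 after adjustment over the 3 ratios.

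The order of the 10 genes by RPKM changed. In control cells it ran from Hif1a (34.6 ± 0.64) and Cited2 (23.8 ± 0.63) through Egln2, Egln3, Hif1an, Egln1, Arnt and Hif3a to Vhl (2.14 ± 0.26) and Epas1 (1.83 ± 0.17; SD, n = 3 each). The ranges of Egln3 and Hif1an, of Hif1an and Egln1 and of Vhl and Epas1 overlapped. In H/R cells Cited2 came before Hif1a, at 85.3 ± 2.54 against 52.3 ± 1.30, followed by Egln1 (41.5 ± 1.28), Egln3 (30.0 ± 0.82), Hif1an, Arnt, Egln2, Hif3a, Vhl and Epas1 (0.569 ± 0.082), and no neighbours in this order overlapped.

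Other genes of the pathway were described from 4 lists, which were chosen with earlier results of these data known. Of 24 known HIF target genes, all were tested. At an adjusted p under 0.05, 21 rose and 1 fell, against 31.0% and 31.8% of all tested genes. Past both thresholds 15 rose, against 4.25% of all tested genes. The median log2 fold change of the 24 target genes was 1.49, against -0.01 for all tested genes. Among target genes past both thresholds with a mean count of at least 100, Ndrg1, a stress-response gene, rose most, from 4733 ± 385 to 44571 ± 1104 normalized counts (SD, n = 3 each; log2 fold change 3.24), and Pdk1, which restrains entry of pyruvate into mitochondria, rose least, from 305 ± 58.8 to 622 ± 53.6 (log2 fold change 1.02). Of the exon bases of Ndrg1, 8.43% are shared with other genes. Adm rose more, from 13.4 ± 0.25 to 185 ± 19.6 (log2 fold change 3.78), but its mean count of 99.3 was just under 100. The target gene that fell was Pfkfb4, from 132 ± 11.9 to 73.1 ± 7.94 (log2 fold change -0.85). Car9 and Ddit4 did not pass the test, with log2 fold changes of -0.17 and 0.04. Adm, Pfkfb4, Car9 and Ddit4 were singled out after their values were seen.

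Genes of the VHL ligase and other factors that bear on HIF stability went in both directions. Of 17 genes, 16 were tested, 5 rose and 3 fell, against 31.0% and 31.8% of all tested genes. Past both thresholds 1 rose, against 4.25% of all tested genes, and the median log2 fold change was 0.03. Of the ligase itself, the elongin genes Tceb1 and Tceb2 and the scaffold gene Cul2 did not pass the test, with log2 fold changes of 0.01, -0.09 and 0.04, while the RING subunit gene Rbx1 fell from 1065 ± 26.1 to 771 ± 37.8 normalized counts (SD, n = 3 each; log2 fold change -0.47). Wsb1, which codes for another ubiquitin ligase subunit reported to act on VHL, rose from 628 ± 33.2 to 1489 ± 28.1 (log2 fold change 1.25). Siah2, a ligase for EGLN proteins, rose from 75.8 ± 6.37 to 150 ± 23.6 (log2 fold change 0.98), and the log2 fold changes of the others that rose were 0.32 for Rack1, 0.31 for Siah1a and 0.23 for Usp33, of whose exon bases 24.4% are shared with other genes. Usp20, a deubiquitinase linked to HIF, fell with a log2 fold change of -0.60, and Stub1 with -0.14, although 40.9% of its exon bases are shared with other genes. Ube2m did not pass the test, with a log2 fold change of -1.07. It had 2920, 1442 and 924 counts in control and 687, 704 and 905 in H/R libraries, and the normalized counts overlapped. All but Wsb1 were singled out after their values were seen. With library totals 3 genes of this list rose, as Siah1a and Usp33 no longer passed, and 4 instead of 3 fell. Siah1a also lost its call without control replicate 1 (log2 fold change 0.28), control replicate 2 (0.24) or H/R replicate 3 (0.26).

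Of 11 coactivator and CITED genes, 9 were tested, and 5 rose and 2 fell in edgeR's test, against 31.0% and 31.8% of all tested genes. Past both thresholds there were 0, against 4.25% of all tested genes higher and 4.27% lower. The median log2 fold change was 0.15, against -0.01 for all tested genes. The p300 and CBP genes, whose products HIF and CITED2 compete for, both rose. Ep300 went from 2483 ± 81.0 to 3140 ± 34.1 normalized counts (log2 fold change 0.34) and Crebbp from 654 ± 57.2 to 1136 ± 46.4 (SD, n = 3 each; log2 fold change 0.80). Ncoa1, Pkm and Ruvbl2 rose with log2 fold changes of 0.51, 0.35 and 0.15, and Ruvbl2 did not pass with library totals (0.04). Of the exon bases of Pkm 15.3%, and of those of Ruvbl2 15.4%, are shared with other genes. Ncoa2 and Ruvbl1 fell with log2 fold changes of -0.14 and -0.10. Both calls were lost without control replicate 1 (-0.15 and -0.09) or H/R replicate 3 (-0.10 and -0.09). That of Ncoa2 was also lost without control replicate 2 (-0.09) or H/R replicate 2 (-0.16), and that of Ruvbl1 without H/R replicate 1 (-0.08). These genes were named after their values were seen. Of the CITED relatives of Cited2, Cited1 had too few counts to be tested and Cited4 was not analysed here.

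The last list held 16 other bHLH-PAS genes and related PAS genes, the latter including Per1, Per2 and Per3. Ncoa1 and Ncoa2 were counted with the coactivators and not on this list. Of the 16 genes, 8 were tested, 4 rose and 1 fell, against 31.0% and 31.8% of all tested genes. Past both thresholds 1 rose, against 4.25% of all tested genes. The median log2 fold change of this mixed list was 0.40, against -0.01 for all tested genes. Ahr, the aryl hydrocarbon receptor and another partner of ARNT, rose from 117 ± 6.75 to 332 ± 4.0 normalized counts (SD, n = 3 each; log2 fold change 1.5). Ncoa3, the clock gene Arntl and Per1 rose with log2 fold changes of 0.88, 0.78 and 0.41, and Sim2 fell with -0.20. All but Ahr were named after their values were seen. Arnt2, the close relative of Arnt, had too few counts to be tested.

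**Figure D4:**
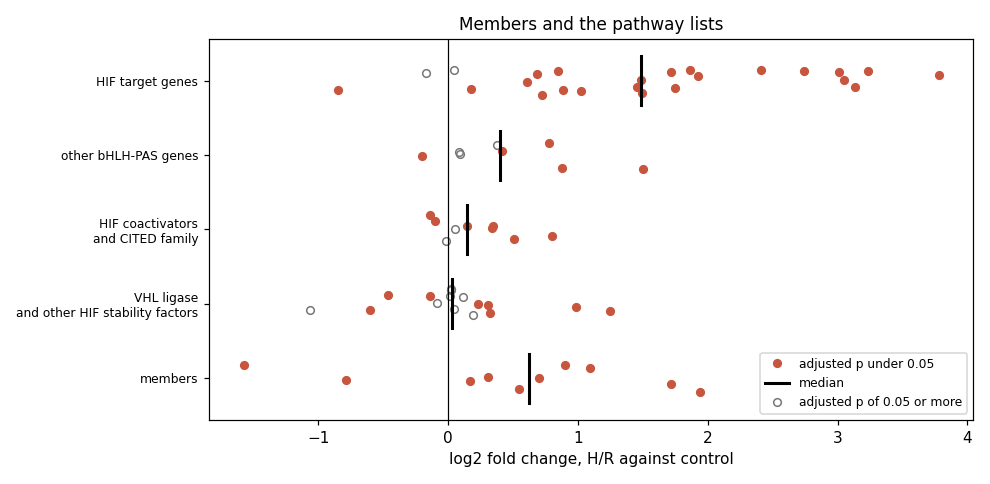
Log2 fold change of H/R against control (horizontal axis) for the 10 genes and for the tested genes of the 4 pathway lists. Each point is a gene, filled where the adjusted p was under 0.05, and black bars are medians, which were 0.62 for the 10 genes and 1.49 for the HIF target genes.

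For the 4 genes past both thresholds, the genes with the most similar values over the 6 libraries were found by Pearson correlation of log2 CPM among 10176 other genes with a mean count of at least 100. The 6 libraries form 2 groups, so a high correlation mostly restates a change between groups, and it is given as a description. For Cited2 the nearest were Ankrd1, Maff and Phldb3 (r of 0.9999, 0.9998 and 0.9998), and 805 genes had r of at least 0.99. For Egln1 they were the glucose transporter gene Slc2a1, Camsap1 and Kmt5b (r of 0.9999, 0.9998 and 0.9998), with 821 genes at that level. For Egln3 they were Lsm12, Tgif1 and Ikzf5 (r of 0.9995, 0.9995 and 0.9994), with 435 genes, although 84.5% of the exon bases of Ikzf5 are shared with other genes. For Epas1, which fell, they were Tarbp2, Rnpc3 and Rfx7 (r of 0.9996, 0.9982 and 0.9981), with 157 genes. Of the exon bases of Rnpc3, 17.0% are shared with another gene.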

How the data were processed

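RNA-seq of AML12 cells was analysed from 6 deposited tables, 3 control and 3 H/R. The sample titles gave groups and replicate numbers. The deposited counts are whole numbers per gene, made by the authors from paired-end reads of stranded mRNA libraries aligned to GRCm38. Trimmomatic 0.36, featureCounts of Subread 1.5.1 and edgeR 3.12.1 are named in the submitters' processing notes, and the gene annotation is not given in the sources used here. The deposited RPKM values follow from count, exon length and library total, with a largest relative error of 1.13e-06. Whether counting used strand is not stated, so genes with shared exons are uncertain.

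Counts were fitted in R 4.3.3 with edgeR 4.0.16 (filterByExpr, TMM, robust glmQLFit, glmQLFTest), with Benjamini-Hochberg adjustment over 14020 genes. The thresholds were an adjusted p of 0.05 and a fold change of 2. Normalized counts are scaled to the mean effective library size. Standard errors of log2 fold changes were back-calculated, as the absolute log2 fold change divided by the square root of the F statistic of glmQLFTest. Alternatives were DESeq2 1.42.0, upper quartile scaling, library totals, the replicate number as a block, an unfiltered table, a minimum of 10 counts in each library, limma 3.58.1 on log2(RPKM + 1) and log2(RPKM + 0.1), and each library left out. Ratios were compared with exact permutation tests (scipy 1.17.1). Precision is limited by counting for genes as low as Vhl and Epas1.

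Named genes are the 10 members, the largest and smallest change past both thresholds in each list, up to 6 more past both thresholds outside the target list, and the 3 genes most correlated with each member past both thresholds, at a mean count of at least 100. Members and lists were chosen with earlier results of these data known. Promoter windows are from RefSeq on GRCm38.p6.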

Additional observations from a re-analysis of the deposited data

How the results depend on the processing

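Across the 14 alternatives, each of the 10 genes kept its direction, and all but Vhl and Hif1an kept an adjusted p under 0.05. The number of the 10 genes past both thresholds was 4, against 2 with limma on log2(RPKM + 1) and 7 with a fold-change threshold of 1.5. Over all tested genes it was 1195, against 406 and 3420 in the same order. The wider threshold raises these counts by construction, while the limma fit changes scaling, test and pseudocount together. With library totals, and with limma on log2(RPKM + 0.1), 3 of the 10 genes passed both, Egln3 being just under 2-fold. Of the VHL ligase and stability list, 3 genes instead of 5 rose with library totals and in both limma fits. In those settings, and with upper quartile scaling, 4 genes of that list fell instead of 3. Of the coactivator list, 0 genes instead of 2 fell with DESeq2, and 0 to 2 with 1 library left out. The causes were not tested.

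Replicate numbers gave no sign of pairing, as the correlations of same-numbered deviations from the group means were -0.08, -0.003 and -0.003. With the replicate block, 8 of the 10 genes rose, 2 fell, 4 passed both thresholds, and 1200 of all tested genes passed both.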

Other observations

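The ratio of Hif1a to Arnt RPKM, chosen after the values were seen, had values of 4.71, 4.25 and 4.50 in the control libraries and of 3.78, 4.03 and 3.87 after H/R. The groups did not overlap, and the difference was not tested. Epo, the hormone gene on the HIF target list, had 588 ± 44.0 normalized counts in control and 666 ± 15.2 in H/R cells (SD, n = 3 each; log2 fold change 0.18). Of its exon bases 12.2% are shared with Gnb2, and its call was lost in 6 alternatives, among them library totals and leaving out control replicate 3 or H/R replicate 3. Car9, a common hypoxia marker, had a normalized count of 16.6 ± 4.14 in control and 14.7 ± 4.45 in H/R cells (SD, n = 3 each). Of the exon bases of Car9, 9.29% are shared with another gene.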
